A study of Mus musculus with 25 samples.

Results

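Dorsal root ganglia of 25 BXD mouse strains fell into 2 groups by the level of Tceanc2, a chromosome 4 gene whose product carries a domain of the TFIIS family of transcription elongation factors. Strains with at least 300 scaled counts of Tceanc2 are called Tceanc2-high (12 of 25 strains), and strains below 300 are called Tceanc2-low (13 of 25 strains). Scaled counts are read counts that the authors brought to a common scale across libraries. The Tceanc2-high strains were BXD2, BXD6, BXD11, BXD13, BXD15, BXD16, BXD28, BXD34, BXD42, BXD44, BXD77 and BXD87. The Tceanc2-low strains were BXD1, BXD5, BXD9, BXD14, BXD21, BXD36, BXD40, BXD48, BXD55, BXD60, BXD68, BXD73 and BXD89. Both groups were recombinant inbred lines whose parents were C57BL6/J and DBA2/J, and all mice were 8 weeks old. Strain names ended in TyJ in 9 Tceanc2-high and 7 Tceanc2-low strains, and in RwwJ in 3 Tceanc2-high and 6 Tceanc2-low strains. Each strain gave 1 library, so genotype, animal and dissection cannot be told apart, and the p-values measure differences against the spread between strains. Neither the sex of the animals nor how many were pooled per library was stated. No genotypes were used, and whether the groups stand for the parental allele near Tceanc2 was not tested.

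A recombinant inbred line is homozygous for 1 of the parental alleles at nearly every locus, so neighbouring genes tend to be inherited together and distant genes are shuffled between lines. A difference in sequence close to a gene can alter that gene's own RNA, and such local effects on expression are often mapped in BXD tissues. TFIIS factors help RNA polymerase II to resume transcription after it stalls, but little is known of Tceanc2 itself. Dorsal root ganglia hold the cell bodies of sensory neurons together with satellite glia and Schwann cells.

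The depth, estimated from the step between low values of each library, was 20630000 to 40180000 reads in Tceanc2-high strains and 20010000 to 31690000 in Tceanc2-low strains. The median depth was 23030000 in Tceanc2-high and 26550000 in Tceanc2-low strains. The pan-neuronal markers were present in every library: Tubb3, a neuronal tubulin, lay at 78170 to 109907 scaled counts in Tceanc2-high strains and at 70436 to 105584 in Tceanc2-low strains. The 6 pan-neuronal markers summed to 240396 to 288950 in Tceanc2-high strains and 216879 to 309380 in Tceanc2-low strains. BXD21, BXD36 and BXD40, all Tceanc2-low TyJ strains, stood apart: their 6 peptidergic nociceptor markers summed to 109058, 88136 and 98171, against 46766 to 62206 in the other 22 strains. Several of the counts below are also given without these 3 libraries.

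Tceanc2 chose the groups, so its levels are a description. It lay at 598 to 709 scaled counts in the Tceanc2-high strains, with a median of 636.5, and at 60 to 109 in the Tceanc2-low strains, with a median of 71. No strain lay between, and the values nearest the threshold were 598 in BXD2 and 109 in BXD1. The mean was 641.8 ± 28.4 in Tceanc2-high strains (SD, n = 12) and 77.46 ± 17.2 in Tceanc2-low strains (SD, n = 13), a ratio of 8.28. Within the Tceanc2-high group the strains were close together, with a coefficient of variation of 4.42%, where counting error alone gives 3.17% to 4.34% per library. In the Tceanc2-low group the coefficient of variation was 22.2%, against 10.2% to 13.9% from counting error. The counting figures cover counting error only.

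Of the 16151 other genes with a mean of at least 10 scaled counts, 1 passed an adjusted p of 0.05 in limma (0.00619% of those tested). It was Mroh7, a gene of the maestro heat-like repeat family whose role is not well described, which lay on chromosome 4, 5 listed genes before Tceanc2. Mroh7 moved the opposite way to Tceanc2. It lay at 11 to 35 scaled counts in the Tceanc2-high strains, with a median of 23, and at 47 to 114 in the Tceanc2-low strains, with a median of 79. The lowest Tceanc2-high value was in BXD2 and the highest in BXD77, while BXD1 was the lowest and BXD89 the highest of the Tceanc2-low strains, and the groups did not overlap. The mean was 23.7 ± 7.14 in Tceanc2-high strains (SD, n = 12) and 80.3 ± 18.8 in Tceanc2-low strains (SD, n = 13). The difference, on the scale of log2(scaled count + 1), was -1.75 ± 0.16 (SE), with a 95% interval of -2.08 to -1.41 and an adjusted p of 5.56e-07 in limma. Without BXD21, BXD36 and BXD40 the difference was -1.70 ± 0.17 (SE; limma adjusted p = 1.78e-05). Mroh7 was also the only tested gene whose groups did not overlap, again 1 of 16151 (0.00619%). The counts behind it are low: an estimated 14 to 51 reads in Tceanc2-high libraries and 40 to 124 in Tceanc2-low libraries.

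**Figure D1:**
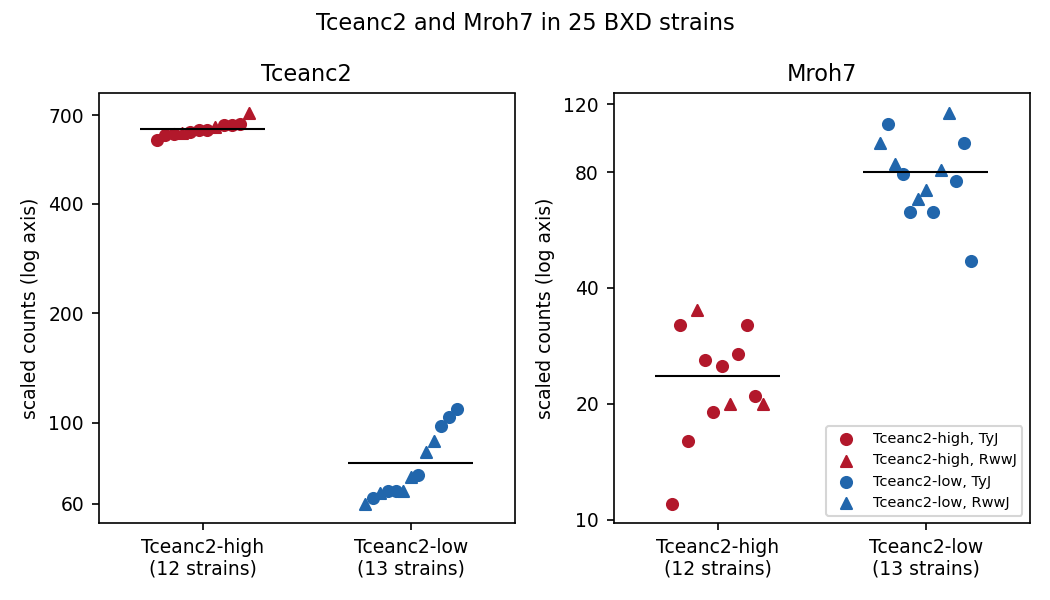
Scaled counts of Tceanc2 (left) and Mroh7 (right) on a log axis, 1 point per strain, ordered by Tceanc2 within each group. Red marks Tceanc2-high and blue Tceanc2-low strains, circles TyJ and triangles RwwJ strains, and lines the group means. Tceanc2 sits at 598 to 709 in Tceanc2-high strains and 60 to 109 in Tceanc2-low strains, while Mroh7 sits at 11 to 35 in Tceanc2-high strains and 47 to 114 in Tceanc2-low strains.

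Within each strain ending the Mroh7 groups are apart because they are apart over all 25 strains, so the values by ending describe only its size and are no further test. Among TyJ strains it lay at 11 to 32 scaled counts in the 9 Tceanc2-high strains and at 47 to 107 in the 7 Tceanc2-low strains, a difference of -1.68 ± 0.22 on the log2 scale (SE). Among RwwJ strains it lay at 20 to 35 in the 3 Tceanc2-high strains and at 68 to 114 in the 6 Tceanc2-low strains, a difference of -1.76 ± 0.24 (SE). In limma over all genes the adjusted p was 0.0117 among TyJ strains and 0.351 among RwwJ strains. The 2 differences themselves differed by -0.08 ± 0.36 (SE, RwwJ minus TyJ; limma unadjusted p = 0.82), which does not show that they are alike.

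The sequences around the starts of Tceanc2 and Mroh7 are shown, from 250 bases before to 50 bases after. These genes were taken because Tceanc2 set the groups and Mroh7 alone passed the adjusted threshold. The sequences come from RefSeq (GRCm38.p6), run 5′ to 3′ along each gene's own strand, and both genes lie on the minus strand. In the Tceanc2 window (chr4:107178317-107178616) capitals mark the 237 bases that it shares with the window of Tmem59, which starts head to head with it. In the Mroh7 window (chr4:106727881-106728180) capitals mark the match to GGGCGG, the core of the Sp1 motif.
Tceanc2: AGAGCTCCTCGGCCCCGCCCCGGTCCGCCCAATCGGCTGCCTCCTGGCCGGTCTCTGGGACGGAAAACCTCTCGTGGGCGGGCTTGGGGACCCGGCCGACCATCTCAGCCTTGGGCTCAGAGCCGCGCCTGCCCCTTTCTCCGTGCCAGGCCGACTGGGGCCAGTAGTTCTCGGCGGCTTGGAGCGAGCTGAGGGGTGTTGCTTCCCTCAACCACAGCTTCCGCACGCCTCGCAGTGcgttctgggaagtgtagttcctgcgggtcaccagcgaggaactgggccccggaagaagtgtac
Mroh7: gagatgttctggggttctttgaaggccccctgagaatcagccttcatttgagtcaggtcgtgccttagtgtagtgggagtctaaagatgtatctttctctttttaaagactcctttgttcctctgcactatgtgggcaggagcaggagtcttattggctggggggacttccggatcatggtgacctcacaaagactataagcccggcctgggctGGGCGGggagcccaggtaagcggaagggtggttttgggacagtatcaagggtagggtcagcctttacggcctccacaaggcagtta
GGGCGG occurred on either strand 3 times in the Tceanc2 window and once in the Mroh7 window, and 35.7% of 32851 such windows held it. The Tceanc2 window had 25 CG dinucleotides and a GC content of 67.7%, while the Mroh7 window had 6 and 52.7%. The median window had 7 CG dinucleotides, and 18.4% had at least as many as Tceanc2. Neither window held TATAAA on either strand, which 13.6% of windows did. These matches describe the letters and not the binding of a factor, and the sequence is of the reference strain and not of the BXD lines.

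The 12 listed genes on either side of Tceanc2, taken whatever their values, were mostly close to equal between the groups. Of these 24 genes, Mroh7 alone passed an adjusted p of 0.05 in limma. In Tceanc2-high strains 15 were higher and 9 lower (Tmem59 and 0610037L13Rik, both near 0, turned to lower under median-ratio scaling), and 18 differed by at most 0.25 on the log2 scale. Their median absolute difference was 0.115, against 0.072 over all genes tested. At an unadjusted p of 0.05, 5 of the 24 passed, beside 527 of 16151 over all genes (3.26%), of which 307 were higher (1.9%) and 220 lower (1.36%) in Tceanc2-high strains. Without BXD21, BXD36 and BXD40, 2 of the 12 before Tceanc2 and 2 of the 12 after it passed, beside 283 of 16151 over all genes (1.75%).

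Tmem59, a Golgi membrane protein gene that shares its start region with Tceanc2, lay at 6203 to 7989 scaled counts in Tceanc2-high strains and 5720 to 8175 in Tceanc2-low strains. Its difference was 0.003 ± 0.060 on the log2 scale (SE; 95% interval -0.120 to 0.127), a direction that turned to -0.01 under median-ratio scaling. The libraries do not mark strand, so reads of overlapping genes cannot be told apart. Ndc1, a membrane nucleoporin that anchors the nuclear pore, lay 5 genes after Tceanc2 at 608 to 924 in Tceanc2-high strains (median 879.5) and 621 to 758 in Tceanc2-low strains (median 654). Its difference was 0.29 ± 0.06 (SE; limma unadjusted p = 7.61e-05, adjusted p = 0.307), and the groups overlapped. BXD11, BXD15 and BXD34 were the Tceanc2-high strains at 608 to 727, while the other 9 lay at 797 to 924. Lrp8os3, a lncRNA beside the reelin receptor gene Lrp8, had means of 31.0 in Tceanc2-high and 18.8 in Tceanc2-low strains. The Lrp8os3 difference was 0.72 ± 0.19 (SE; limma unadjusted p = 0.000909, adjusted p = 0.908), and 0.82 ± 0.20 (SE) without BXD21, BXD36 and BXD40. Lrp8 itself differed by 0.135 ± 0.114 (SE). Acot11, an acyl-CoA thioesterase, had means of 443 in Tceanc2-high and 383 in Tceanc2-low strains and differed by 0.22 ± 0.09 (SE; limma unadjusted p = 0.0166, adjusted p = 0.908). The Acot11 difference was 0.15 ± 0.09 without BXD21, BXD36 and BXD40 (SE; limma unadjusted p = 0.103).

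Other neighbours overlapped between the groups as well. Cyb5rl, a cytochrome b5 reductase-like gene directly before Tceanc2, lay at 99 to 159 scaled counts in Tceanc2-high strains and 98 to 156 in Tceanc2-low strains. Ssbp3, a cofactor of LIM-domain transcription factors, lay at 3133 to 4537 in Tceanc2-high strains and 3178 to 4864 in Tceanc2-low strains. Mrpl37, of the mitochondrial ribosome, lay at 955 to 1208 in Tceanc2-high strains and 924 to 1362 in Tceanc2-low strains. Cpt2, an enzyme of mitochondrial fatty acid oxidation, lay at 923 to 1293 in Tceanc2-high strains and 831 to 1294 in Tceanc2-low strains. Ttc22 differed by 0.38 ± 0.18 (SE; limma unadjusted p = 0.0422, adjusted p = 0.908).

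**Figure D2:**
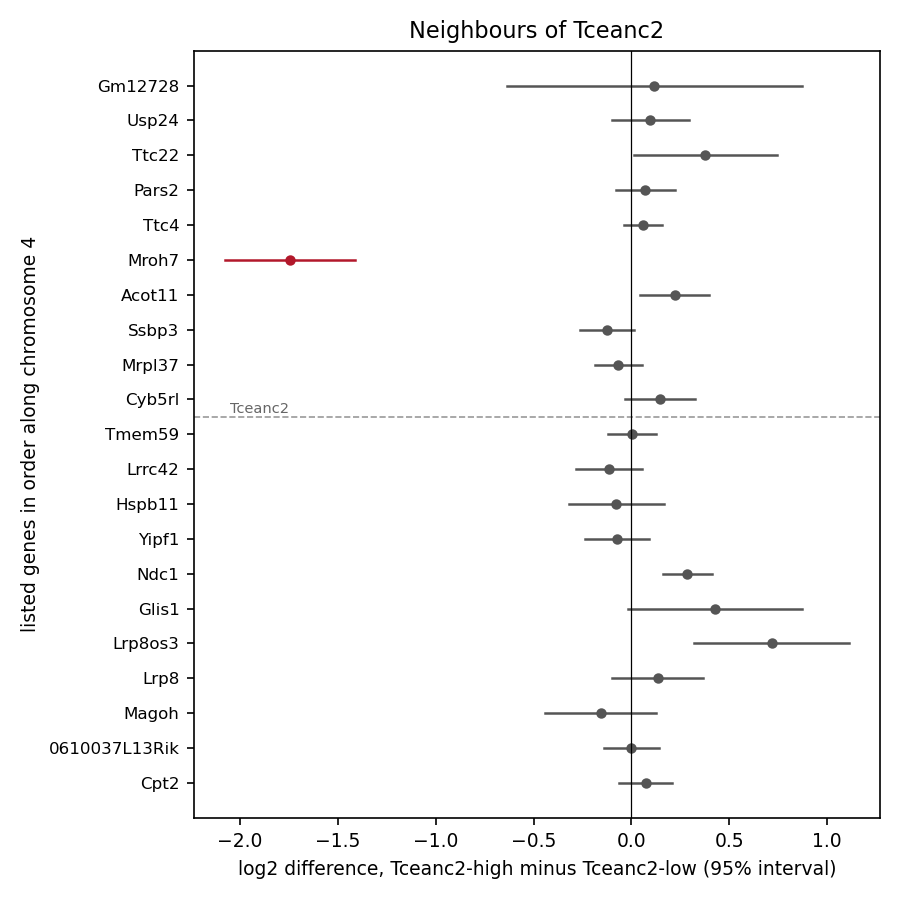
Difference (Tceanc2-high minus Tceanc2-low, log2 of scaled count + 1) with its 95% interval for the neighbours of Tceanc2 reported by name, in order along chromosome 4, with Mroh7 in red and the place of Tceanc2 dashed. Gm12906, a pseudogene with an interval of -3.23 to 0.58, is left out. Mroh7 stands at -1.75, away from every other gene drawn.

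Genes of small p were denser on chromosome 4, with the neighbours counted in. Of 1006 tested genes on it, 63 had an unadjusted p below 0.05 in limma (6.26%), against 438 of 14635 on other chromosomes (2.99%), where single chromosomes ran from 1.57% to 4.13%. Without BXD21, BXD36 and BXD40 the counts were 36 on chromosome 4 (3.58%) and 227 on other chromosomes (1.55%). The ratio of the shares was smaller in some settings and larger in others. It was smaller with strain ending as a covariate (13.2% on chromosome 4 against 10.1% on other chromosomes). The same held among TyJ strains alone (23.4% against 19.5%) and RwwJ strains alone (1.99% against 1.59%). It was larger without BXD36 (4.87% against 1.98%) and for genes with a mean of at least 50 (6.0% against 2.71%). Of the 10 genes of smallest p, 9 lay on chromosome 4. Tceanc2 lay at place 415 of the 1012 listed chromosome 4 genes. The shares differed by distance from Tceanc2. Within 12 places they were 3 of 12 genes before it and 2 of 12 after it, and at 13 to 50 places 2 of 37 before and 5 of 38 after. Farther out there were 10 of 50 genes at 51 to 100 places after it and 15 of the next 100, but 3 of 49 genes and 3 of the next 98 at the same places before it. At these distances, with BXD21, BXD36 and BXD40 left out, the counts after Tceanc2 were 8 and 8, and before it 2 and 1. Within 12 places the counts without those 3 strains were 2 before Tceanc2 and 2 after it. At 13 to 50 places they were 2 before and 4 after. Over 200 places away the share was 5.61% before Tceanc2 and 2.02% after it. Neighbouring genes share strains and are not independent, so no test was made of these shares.

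**Figure D3:**
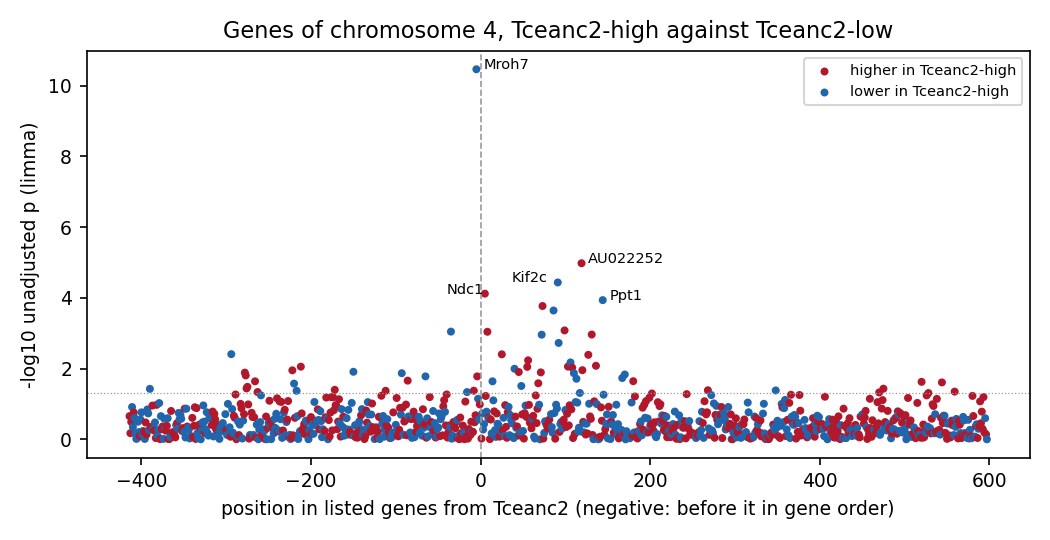
Unadjusted limma p (as -log10, y axis) of tested chromosome 4 genes with a symbol, by place in listed gene order relative to Tceanc2 (x axis, dashed line), with the dotted line at 0.05. Red points are higher and blue points lower in Tceanc2-high strains. Mroh7 is the only gene past the adjusted threshold, and the labelled genes were chosen by their values.

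The chromosome 4 genes of next smallest p were chosen after their values were seen. AU022252, 119 genes after Tceanc2, lay at 646 to 1492 scaled counts in Tceanc2-high strains (median 1244.5) and 500 to 777 in Tceanc2-low strains (median 652), a difference of 0.74 ± 0.14 on the log2 scale (SE; limma adjusted p = 0.0844, and 0.352 without BXD21, BXD36 and BXD40). Kif2c, a microtubule-depolymerising kinesin, had means of 23.7 in Tceanc2-high and 44.6 in Tceanc2-low strains, a difference of -0.92 ± 0.19 (SE; limma adjusted p = 0.197). Eif2b3, a subunit of the translation factor eIF2B, differed by -0.42 ± 0.10 (SE; limma adjusted p = 0.527), and Ppt1, a lysosomal thioesterase, by -0.26 ± 0.06 (SE; limma adjusted p = 0.373). Ccdc17 differed by 0.833 ± 0.19 (SE; limma adjusted p = 0.458) and C530005A16Rik by -0.496 ± 0.135 (SE; limma adjusted p = 0.908). These 2 genes overlap on opposite strands, so unstranded reads from their shared stretch cannot be assigned to 1 of them. C530005A16Rik also overlaps Gpbp1l1.

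The same 4 Tceanc2-high strains, BXD15, BXD16, BXD28 and BXD87, sat with the Tceanc2-low strains at several of these genes, a pattern picked out from the values and not tested, while other genes did not follow it. AU022252 lay at 646 to 687 in those 4, at 1187 to 1492 in the other 8 Tceanc2-high strains and at 500 to 777 in the Tceanc2-low strains. Eif2b3 lay at 724 to 900 in those 4, at 458 to 609 in the other 8 Tceanc2-high strains and at 695 to 1044 in Tceanc2-low strains. C530005A16Rik lay at 69 to 87 in those 4, at 37 to 55 in the other 8 Tceanc2-high strains and at 59 to 96 in Tceanc2-low strains. Ppt1 lay between, at 2318 to 2629 in those 4, 1870 to 2328 in the other 8 Tceanc2-high strains and 2348 to 3031 in Tceanc2-low strains. Kif2c did not follow, with a median of 23.5 in those 4, 22 in the other 8 Tceanc2-high strains and 44 in Tceanc2-low strains. At Tceanc2 and Mroh7 the 4 strains sat with the other Tceanc2-high strains, at 619 to 709 and 16 to 32. No Tceanc2-low strain sat with the Tceanc2-high strains at AU022252, Eif2b3 or C530005A16Rik.

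**Figure D4:**
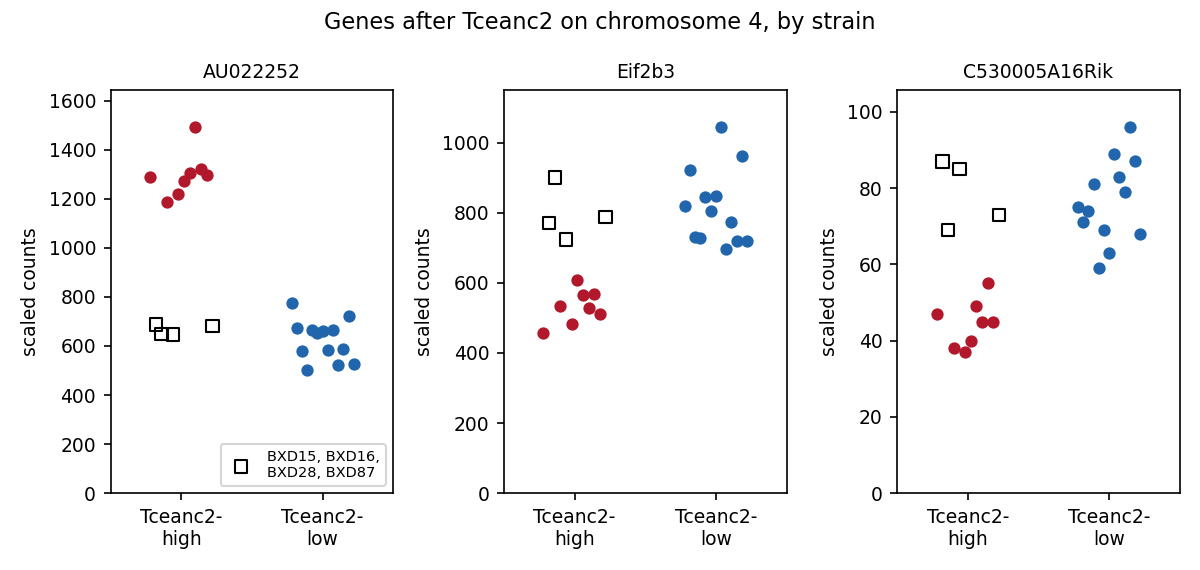
Scaled counts of AU022252, Eif2b3 and C530005A16Rik, 1 point per strain, by Tceanc2 group. Open squares are BXD15, BXD16, BXD28 and BXD87, which lie among the Tceanc2-low strains at all 3 genes (for AU022252 at 646 to 687).

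For every tested gene the 25 values were also split where the sides stood furthest apart, with at least 5 strains a side. The split matched the Tceanc2 groups in 25 of 25 strains for Mroh7 alone, in 22 for Ndc1 and B4galt2, and in 21 for AU022252, C530005A16Rik, Eif2b3 and Kif2c. No other gene reached 21, and all 7 lay on chromosome 4. Beside Tceanc2, 28 of 1006 tested chromosome 4 genes stood at clearly separate levels (a sum of squares between the sides at least 6 times that within). This ratio was 5.16 for Mroh7, 4.23 for Ndc1, 4.0 for C530005A16Rik, 3.47 for Eif2b3, 2.06 for Kif2c and 1.76 for B4galt2, all under 6. AU022252 was 1 of the 28, and the other 27 matched in 13 to 18 strains, where 13 is the lowest a split can give. Over all 16151 tested genes 271 reached a ratio of 6, these 28 among them. The 271 matched in a median of 14 strains and the 28 in a median of 15. The nearest of the 28 in gene order was the pseudogene Gm12906, 7 genes after Tceanc2, and its split matched in only 15 of 25 strains. Its lower side spanned 0 to 6 and its upper side 24 to 99, with a ratio of 10.9. Poor matching was thus seen at 1 near gene, and whether its reads came from that place on chromosome 4 was not tested. Alad, an enzyme of haem synthesis 138 genes before Tceanc2, matched in 14: it was at its high level in 4 Tceanc2-high and 6 Tceanc2-low strains.

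None of the tested partners of TFIIS-type factors passed the adjusted threshold or an unadjusted p of 0.05 in limma. Over all 16151 genes 0.00619% passed the first and 3.26% the second, so a count of 0 is near those shares. Of 39 RNA polymerase II elongation factors 38 were tested, 19 higher and 19 lower in Tceanc2-high strains, with a median difference of -0.002 against 0.006 over all genes and 0 below an unadjusted p of 0.05 in limma. Tcea1, the general TFIIS, had means of 1781 in Tceanc2-high and 1942 in Tceanc2-low strains, a difference of -0.12 ± 0.07 (SE). Nelfa, a subunit of the pausing factor NELF, differed by -0.14 ± 0.07 (SE). With BXD21, BXD36 and BXD40 left out, Tcea1 differed by -0.04 ± 0.06 (SE) and Nelfa by -0.05 ± 0.05 (SE), and the elongation factors were 17 higher and 21 lower. Of the 13 RNA polymerase II subunits, 1 was higher and 12 lower, with a median of -0.06 and 0 below an unadjusted p of 0.05 in limma. Without BXD21, BXD36 and BXD40 the split was turned, with 8 higher and 5 lower and a median of 0.035. Polr2k had the largest difference of the subunits, -0.27 ± 0.18 (SE), and -0.05 ± 0.16 (SE) without those 3 strains.

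Of 35 sensory, channel and lipid genes on chromosome 4, 34 were tested, 13 higher and 21 lower in Tceanc2-high strains, 0 past the adjusted threshold and 4 below an unadjusted p of 0.05 in limma, where 3.26% of all genes and 6.26% of chromosome 4 genes were. Leaving out BXD21, BXD36 and BXD40 gave 20 higher, 14 lower and 2 below an unadjusted p of 0.05 in limma, where 1.75% of all genes and 3.58% of chromosome 4 genes were. Oprd1, the delta opioid receptor of sensory neurons, had means of 271 in Tceanc2-high and 212 in Tceanc2-low strains, a difference of 0.44 ± 0.21 (SE; limma unadjusted p = 0.0410), and 0.19 ± 0.17 (SE) without those 3 strains. Scp2, a lipid carrier, differed by -0.18 ± 0.08 (SE; limma unadjusted p = 0.0229), and by -0.09 ± 0.07 (SE; limma unadjusted p = 0.176) without those 3 strains. Dab1, a reelin adaptor, differed by -0.35 ± 0.17 (SE; limma unadjusted p = 0.0461), and by -0.39 ± 0.18 (SE; limma unadjusted p = 0.0407) without those 3 strains. Faah, which degrades endocannabinoids, differed by 0.11 ± 0.09 (SE), and by 0.07 ± 0.10 (SE) without those 3 strains.

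Markers of other cells varied widely within both groups and their summed levels overlapped in every list, and in a bulk sample fewer cells of a type and less RNA per cell cannot be told apart. All 7 Schwann cell markers were higher in Tceanc2-high strains, where they summed to 118497 to 220730, against 91613 to 215761 in Tceanc2-low strains. All 7 macrophage markers were lower, with sums of 2491 to 6058 in Tceanc2-high and 2999 to 8113 in Tceanc2-low strains. The 6 skeletal muscle markers were lower, with sums of 470 to 25860 in Tceanc2-high and 280 to 38840 in Tceanc2-low strains. The 6 spinal cord markers were lower too, with sums of 240 to 5028 in Tceanc2-high and 366 to 13263 in Tceanc2-low strains, and Slc32a1 was at 0 in some strains of both groups. The 5 erythroid markers were lower, with sums of 6443 to 42890 in Tceanc2-high and 8641 to 52991 in Tceanc2-low strains. Of the other lists, 1 of 6 satellite glia, 4 of 5 endothelial and mural, 1 of 5 fibroblast and 1 of 4 adipose markers were higher. Among neurons, 1 of 6 pan-neuronal, 1 of 6 peptidergic, 2 of 5 non-peptidergic and 4 of 6 large-diameter markers were higher in Tceanc2-high strains. Without BXD21, BXD36 and BXD40 the pan-neuronal and peptidergic markers were each 4 higher and 2 lower, the satellite glia and large-diameter markers 3 higher and 3 lower, and the adipose markers 2 and 2. With them left out, 1 macrophage and 1 spinal cord marker were higher, and the Schwann, erythroid, skeletal muscle, endothelial, fibroblast and non-peptidergic counts were as over all 25. No marker passed the adjusted threshold. Glul, the glutamine synthetase of satellite glia, was the only one below an unadjusted p of 0.05 in limma (0.0491), where 3.26% of all genes were. Without BXD21, BXD36 and BXD40 Glul was at 0.0547 and 1 Schwann cell marker was below 0.05, where 1.75% of all genes were. The part of these cells in the Mroh7 difference was not tested.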

How the data were processed

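RNA from dorsal root ganglia, extracted with Trizol and made into Illumina TruSeq RNA v2 libraries, was sequenced in 25 strains, 1 library each. The tools were CASAVA 1.8.0, TopHat2 2.0.9 and HTSeq and the builds NCBIM37 and mm9, per the submitters' processing notes. The deposited values are a normalized score in whole numbers, with a nearly equal upper quartile and regular steps at low values in each library, as rounded and scaled read counts give, so no count model was fitted. Totals ran from 24637919 to 26860283 per library. Depth was estimated from the step between low values, with factors of 0.622 to 1.254, and is uncertain where the step was weak, most of all in BXD44 and BXD36.

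Strains were grouped at a Tceanc2 value of 300. The groups were compared on log2(score + 1), which understates changes of low genes, with limma 3.58.1 in R 4.3.3 (trended prior, two-sided, Benjamini-Hochberg, threshold 0.05), over the 16151 of 16220 genes with a mean of at least 10, leaving out Tceanc2, which set the groups. The fit was tested on simulated data. The rank-sum alternatives and figures used Python 3.11.15, scipy 1.17.1 and matplotlib 3.10.9.

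Named genes were the 12 listed genes on either side of Tceanc2, any gene past the adjusted threshold and list members past it; the other named genes, examples from the lists included, were chosen after their values were seen. Symbols, chromosomes and gene order came from GENCODE M21, a later build than the files' own, so only names and order were used (96.8% of tested genes annotated). Some genes near Tceanc2 and in the lists are not reported by name here, though the counts over neighbours and lists include them. The members and lists were chosen with earlier results of these data known.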

Additional observations from a re-analysis of the deposited data

How the results depend on the processing

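Mroh7 was recomputed under 13 alternatives and 2 added after the data were seen (an exact rank-sum test, and TyJ strains without BXD21, BXD36 and BXD40). Its difference stayed between -1.771 and -1.425, and it passed the adjusted threshold in 12 of the 15. It did not pass under the rank-sum test with a normal approximation (-1.75, adjusted p = 0.397), though it did with the exact distribution of the rank sum (adjusted p = 0.00621), nor among RwwJ strains alone (-1.76, limma adjusted p = 0.351), or among TyJ strains without BXD21, BXD36 and BXD40 (-1.51, limma adjusted p = 0.651). The last 2 use fewer strains. In these 3 the count of genes past the threshold was 0, on chromosome 4 and in all, beside 459, 267 and 867 genes at an unadjusted p under 0.05. Because the Mroh7 groups did not overlap, its rank sum was at its extreme. Both rank-sum results for Mroh7 follow from that and are no further test. The count on other chromosomes was 0 under every setting tried. Of the other 21 neighbours reported by name none passed the adjusted threshold under any of these settings, and 10 changed direction under some setting, all uncalled. With RwwJ strains alone the values were -0.061 for Cyb5rl, 0.036 for Hspb11, 0.07 for Magoh, 0.063 for Mrpl37, -0.06 for Usp24 and 0.074 for Yipf1. With TyJ strains alone they were -0.058 for 0610037L13Rik, -0.226 for Gm12728 and -0.122 for Tmem59, and without BXD21, BXD36 and BXD40 among them 0.064 for Lrrc42, 0.025 for Mrpl37, -0.043 for Tmem59, -0.066 for Usp24 and 0.02 for Yipf1. Leaving those 3 strains out of all 25 gave 0.029 for Hspb11, 0.016 for Lrrc42, 0.057 for Magoh, 0.005 for Mrpl37, -0.056 for Usp24 and 0.055 for Yipf1. 0610037L13Rik and Tmem59 stood at -0.012 and -0.01 under median-ratio scaling, -0.004 and -0.002 with the side of Alad as a covariate, -0.006 and -0.008 without BXD48, and -0.016 and -0.041 with strain ending as a covariate, where Gm12728 stood at -0.047. The cause of these changes was not tested. No paired analysis was possible because the 2 groups share no strain or replicate number. Genes at an unadjusted p under 0.05 in limma numbered 527 in all 25 strains, 1661 with strain ending as a covariate, 3155 among TyJ strains alone, 693 without BXD48, 364 without BXD36 and 283 without BXD21, BXD36 and BXD40. The counts within gene lists and by place on chromosome 4 without those 3 strains were also added after the data were seen. Low counts of Mroh7 limit its precision.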

Other observations

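On chromosomes other than 4, 0 of 14635 genes passed the adjusted threshold in limma, and 438 had an unadjusted p under 0.05. The genes of smallest p there, chosen after their values were seen, were Car1, a carbonic anhydrase of red cells, with means of 17.8 scaled counts in Tceanc2-high and 42.5 in Tceanc2-low strains, and Nod1, a bacterial peptidoglycan sensor, with means of 598 in Tceanc2-high and 459 in Tceanc2-low strains. Car1 differed by -1.14 ± 0.30 on the log2 scale (SE) and Nod1 by 0.38 ± 0.10 (SE), both with a limma adjusted p of 0.908. The erythroid markers were lower in Tceanc2-high strains as well, and the part of red cells in the Car1 value was not tested.

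Among TyJ strains alone 3155 genes had an unadjusted p under 0.05 in limma (19.5% of those tested). Without BXD21, BXD36 and BXD40, 3 Tceanc2-low strains, the number was 867 (5.37%), and among RwwJ strains it was 267 (1.65%). The difference between the endings was past the adjusted threshold for 0 genes in limma and below an unadjusted p of 0.05 for 1511.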
